A study of Mus musculus with 12 samples.

Results

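The 9 genes described here make proteins that read DNA methylation or take part in its removal. The readers are Mbd1, Mbd2, Mbd3, Mbd4 and Zbtb38, and the erasers are Tet1, Tet2, Tet3 and Tdg. Their probes were chosen by name, as every probe that the array files list under the current or an older symbol of these genes. That gave 16 of 41174 probes. Of these, 15 gave a signal well above background in at least 1 genotype on 6 or more of 12 arrays and were tested, and each of the 9 genes kept at least 1 probe. Messenger RNA was measured in mouse lung tumours of 2 genotypes, with Dnmt3a knocked out (KO) or wild type (WT). Dnmt3a adds new methyl groups to DNA.

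All animals were of mixed C57/129 strain and carried a mutant K-ras allele, silent until Cre recombinase acts on it. Cre came from an adenovirus given through the windpipe or the nose, and in KO animals it also acted on conditional Dnmt3a alleles. The knockout is therefore limited to cells that took up the virus and their descendants, and other cells of the tumour keep Dnmt3a. Each array carried KO RNA in one dye (Cy3 or Cy5) and WT RNA in the other, and 6 arrays had KO RNA in each dye. The labels hold 4 combinations of age and sex, called pairs here. Pair A (4 arrays, replicates 1 to 4) set a KO male of age 47.7 against a WT male of age 42.6, and the labels give no unit of age. Pair B (4 arrays, replicates 5 to 8) set KO males of age 27 against WT males of age 41.3. Pair C (2 arrays, replicates 9 and 10) had a KO male of age 27 and a WT female of age 47.6, and pair D (2 arrays, replicates 11 and 12) had males of ages 29.1 and 37.3. Pairs A and B had KO RNA in each dye on 2 arrays, while pair C had it in Cy5 on both arrays and pair D in Cy3 on both. Within pair C or D alone, the KO over WT ratio therefore cannot be told apart from a dye effect. Pairs B and C may share a KO animal. The labels call the 12 arrays biological replicates but do not tie them to separate animals within a pair, so the p-values rest on the spread among arrays, part of which may be technical. The KO animal was older in pair A and younger in pairs B, C and D, and in pair C the sexes differed too. Within any single pair, genotype cannot be told apart from age, nor in pair C from sex.

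Methylated DNA is written by the Dnmt enzymes on the cytosine of CG dinucleotides. Proteins with a methyl-CpG-binding domain, the Mbd family, dock on these sites and bring corepressors and histone deacetylases. Mbd1 works with a histone methyltransferase, Mbd2 and Mbd3 are alternative subunits of the NuRD chromatin remodelling complex, and Mbd4 is also a glycosylase that repairs mismatches at CG sites. Mammalian Mbd3 itself binds methylated DNA poorly. Zbtb38 reads methylated DNA through zinc fingers. The Tet enzymes oxidise methylcytosine with 2-oxoglutarate as a cofactor, and Tdg cuts out the oxidised bases so that base excision repair can replace them.

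The dinucleotide that these proteins read or act on is shown in 2 promoters of the group, those with the fewest and the most CG among the member starts used. The starts were those of RefSeq promoters of assembly GRCm38.p6 for 7 of the 9 genes, with 9 starts. Mbd1 and Mbd2 were left out, so the choice of promoters and the CG counts of members do not cover them. Both promoters shown are the 250 bases before the start, written 5′ to 3′ on the strand of the gene (-), with every CG in capitals. The Zbtb38 window is chr9:96731676-96731925 with 6 CG, and the Tet2 window is chr3:133544391-133544640 with 51 CG.
Zbtb38: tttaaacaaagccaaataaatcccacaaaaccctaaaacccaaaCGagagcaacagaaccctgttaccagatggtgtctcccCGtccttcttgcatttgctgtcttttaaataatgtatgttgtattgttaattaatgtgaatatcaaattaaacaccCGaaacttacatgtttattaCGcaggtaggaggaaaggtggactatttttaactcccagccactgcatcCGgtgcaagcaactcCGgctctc
Tet2: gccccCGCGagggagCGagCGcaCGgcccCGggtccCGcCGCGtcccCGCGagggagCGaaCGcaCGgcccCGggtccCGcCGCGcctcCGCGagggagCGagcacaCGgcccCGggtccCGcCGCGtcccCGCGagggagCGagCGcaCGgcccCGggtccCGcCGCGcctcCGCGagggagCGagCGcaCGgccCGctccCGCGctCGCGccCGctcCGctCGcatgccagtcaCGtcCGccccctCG

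CG reads the same on both strands, and 92.1% of all 32851 promoters in the table hold at least 1 in this window, with a median of 6. As many as in the Tet2 window were found in 0.067% of them. The other starts held 14 (Mbd3), 15 (Tet1), 17 (Tet3), 19 (Tdg), 22 (Mbd4), and 23 and 31 (the other Zbtb38 starts). These are counts of letters, and methylation itself was not measured here.

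The arrays of pairs A and B lay on a slide each, with 80.9% to 87.5% of probes well above background in both dyes. Pairs C and D shared the other slide, with 57.4% to 68.8%. The median signal over local background was 3.62 to 9.75 for KO RNA and 3.41 to 7.13 for WT RNA, and 0 member probes were saturated on any array. Precision is limited by there being 12 arrays in 4 pairs, with arrays of a pair not tied to separate animals. Across probes, the ratios of arrays of the same pair correlated at a mean of 0.30 (14 comparisons) and those of different pairs at 0.20 (52 comparisons, -0.15 to 0.53). Dnmt3a, the targeted gene, was lower in KO RNA at each of its 3 probes, with log2 KO over WT ratios of -0.55 ± 0.075, -0.25 ± 0.049 and -0.21 ± 0.045 (SE, 12 arrays, limma adjusted p = 0.00265, 0.0158 and 0.0217). The probe with the largest fall was well above background on 8 KO and 12 WT arrays, and on no KO array of pairs C and D. Which part Cre removes was not given, so the 3 probes may lie outside it, and such a probe would check nothing.

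Among the 9 genes, Mbd1 was the one with a called probe, which was lower in the KO tumours. Probe A_52_P131423 had 3.04-fold less Mbd1 signal in KO than in WT RNA and was lower on 12 of 12 arrays. Its call was lost when arrays were averaged by pair (limma adjusted p = 0.114). Mbd1 probes A_51_P143224 and A_52_P158923 had 1.32-fold and 1.25-fold less signal in KO RNA and were not called (limma adjusted p = 0.0848 and 0.0858). The other 8 genes had 0 called probes, and their 12 tested probes had 95% intervals that reached at most 0.52 from 0 on the log2 scale. A probe was called when its limma p, adjusted over all 35562 tested probes, was below 0.05. The 15 tested member probes gave 1 call (lower) and 5 with an unadjusted p under 0.05, against 5.72% of all tested probes called, 2.88% called lower, 2.83% called higher and 21.0% under the unadjusted threshold. Their median log2 ratio was -0.080, against -0.0026 over all tested probes, with 6 above 0 and 9 below. In bulk tumour RNA, fewer cells of a type and less RNA per cell cannot be told apart.

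**Figure D1:**
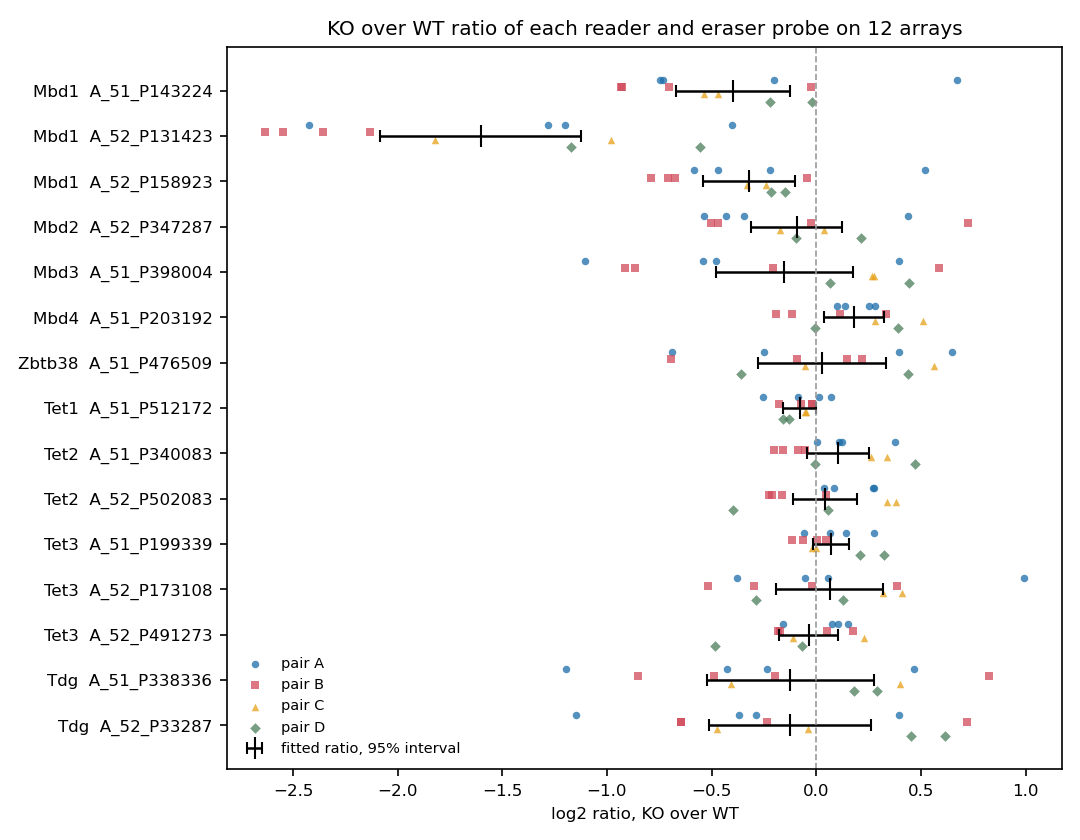
Log2 KO over WT ratio (horizontal axis) of the 15 tested reader and eraser probes (vertical axis), with 1 point per array, coloured by pair; black bars are the fitted ratio with its 95% interval. Mbd1 probe A_52_P131423 lies between -2.63 and -0.40 on all 12 arrays, while the bars of the 12 probes outside Mbd1 reach at most 0.52 from 0.

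Mbd1 is a repressor that carries a methyl-CpG-binding domain and, in some isoforms, a further CXXC zinc finger that binds unmethylated CG. It was measured by 3 probes, on chromosome 18 (build mm7, + strand). Probe A_52_P131423 lay at chr18:74663928-74663987 and was designed on a cDNA clone rather than on the RefSeq transcript. Probe A_52_P158923 lay 12473 bases further along, at chr18:74676401-74676460, and probe A_51_P143224 at chr18:74676874-74676933, another 473 bases on. Both of these were designed on the RefSeq transcript. Which exons or untranslated parts the probes lie in was not analysed here.

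At A_52_P131423 the log2 KO over WT ratio was -2.63 on the lowest array, -1.55 at the median and -0.40 on the highest. The normalized log2 intensity was 7.48 ± 0.43 in KO RNA (SD, 12 arrays, 6.90 to 8.44) and 9.11 ± 0.87 in WT RNA (7.51 to 10.1). KO lay below WT within every array, yet the ranges overlapped, and 6 KO values lay below the lowest WT value. The fitted ratio was -1.60 ± 0.22 (SE, 95% interval -2.08 to -1.12, limma adjusted p = 0.0029). Over all tested probes, 1.00% were lower on 12 of 12 arrays.

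**Figure D2:**
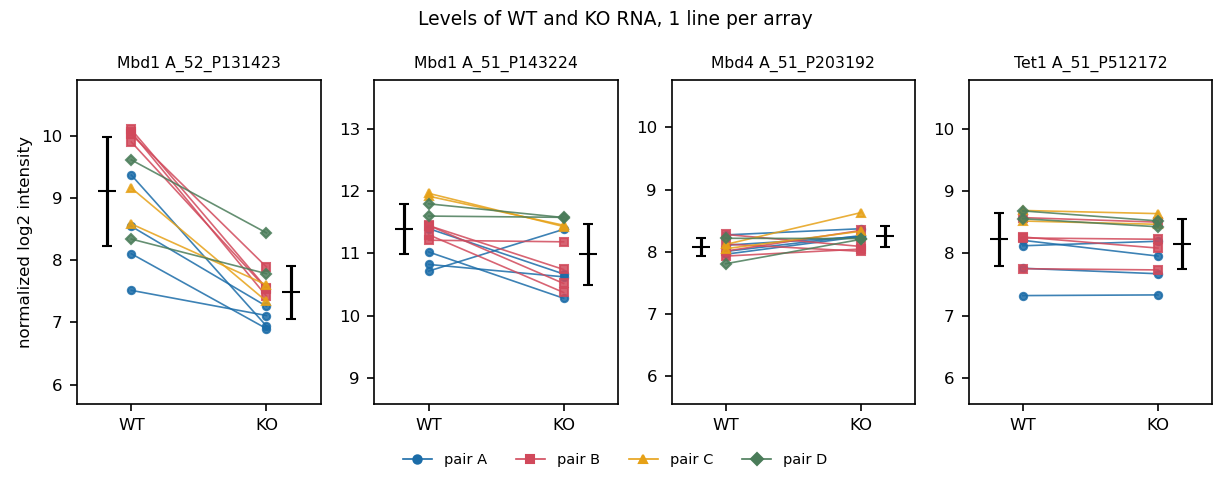
Normalized log2 intensity (vertical axis, same span in each panel) of WT and KO RNA at 2 Mbd1 probes, the Mbd4 probe and the Tet1 probe, with 1 line per array coloured by pair and black bars for mean ± SD over 12 arrays. Every line falls from WT to KO at Mbd1 A_52_P131423 (means 9.11 and 7.48), while the lines change by -0.19 to 0.51 at Mbd4 and by -0.25 to 0.073 at Tet1; levels of different probes cannot be set against each other.

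The size of the fall at this probe varied by pair. In pair A the arrays read -1.20, -1.28, -2.43 and -0.40 (replicates 1 to 4). In pair B they read -2.13, -2.36, -2.63 and -2.55 (replicates 5 to 8). Pair C read -1.82 and -0.98, and pair D read -1.17 and -0.56. Pair B was the lowest and the least spread, with WT intensities of 9.90 to 10.1 that were the highest of the 12 arrays. With a coefficient for each pair, the fitted ratios were -1.33 (A), -2.42 (B), -1.17 (C) and -1.09 (D), and the difference between pairs did not pass (limma F test, adjusted p = 0.350, unadjusted p = 0.0319). The call was lost when arrays were averaged by pair (-1.503, limma adjusted p = 0.114) and within slides 1, 2 and 3 (-1.33, -2.42 and -1.13, limma adjusted p = 0.205, 0.123 and 0.145). It held in the other 27 of 31 settings, including each array left out in turn.

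The other 2 Mbd1 probes gave smaller ratios and were not called. Probe A_51_P143224 ranged from -0.93 through a median of -0.50 to 0.67, with a fitted ratio of -0.40 ± 0.12 (limma adjusted p = 0.0848). Probe A_52_P158923 ranged from -0.79 through -0.29 to 0.52, with a fitted ratio of -0.32 ± 0.10 (limma adjusted p = 0.0858). Both were below 0 on the same 11 arrays and above 0 on replicate 4, where A_52_P131423 also had its smallest fall. Without replicate 4, or with the arrays taken as independent or weighted, all 3 Mbd1 probes were called. The share of all tested probes called was 5.10% without replicate 4, 9.19% with the arrays independent and 7.49% with array weights.

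The gap between the probes was tested on each array, a comparison chosen after their values were seen. A_52_P131423 minus the mean of the other 2 was -1.26 ± 0.58 on the log2 scale (SD, 12 arrays), from -2.33 to -0.47, and below 0 on 12 of 12 arrays. An exact sign-flip permutation test gave a two-sided p of 0.000488, the smallest that 12 arrays allow. Over the means of the 4 pairs the gap was -1.16, with an exact p of 0.125, again the smallest possible. Across the 12 arrays, which share pairs and slides, the ratios of both RefSeq-designed probes correlated at 0.97, and those of A_52_P131423 with them at 0.68 and 0.71.

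**Figure D3:**
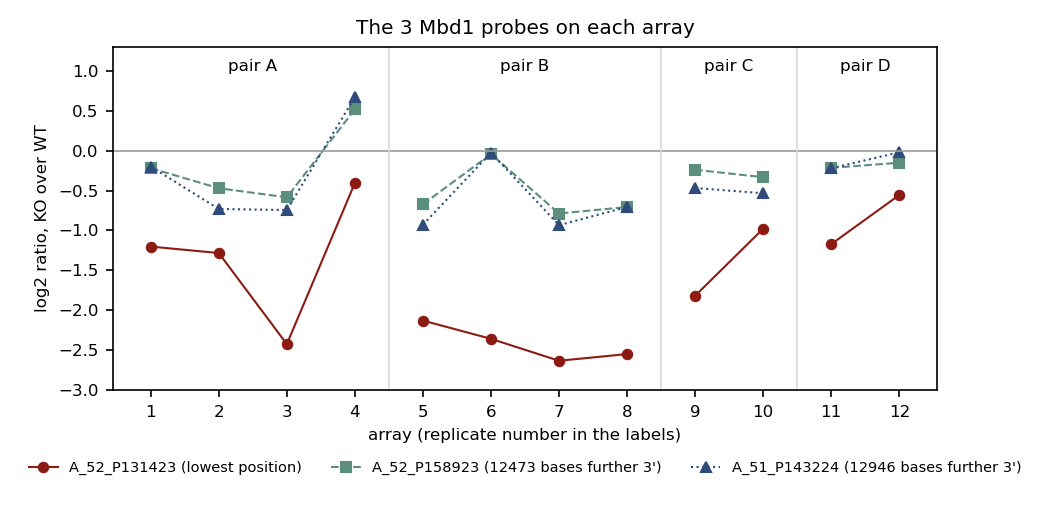
Log2 KO over WT ratio (vertical axis) of the 3 Mbd1 probes on each array (horizontal axis, replicate number), split by pair, with the distance between probes in the legend. A_52_P131423 is the lowest on all 12 arrays, with differences of -2.33 to -0.47 from the mean of the other 2, which run together and rise above 0 on replicate 4 alone.

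The 5 genes whose ratios lay closest to Mbd1 A_52_P131423 over the 12 arrays are given as a description, since choosing them by likeness fixes their direction. Likeness was the mean absolute difference of log2 ratios, which was 0.593 for Nol3, an inhibitor of apoptosis, 0.621 for Man2a1, a Golgi mannosidase, and 0.622 for Fibin. It was 0.633 for Cecr2, a bromodomain protein, and 0.671 for Cldn5, the tight junction protein of endothelial cells. Their fitted log2 ratios were -1.47, -1.12, -1.16, -1.16 and -1.47.

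Markers of endothelial cells moved with the same contrast. Of 12 such markers, all well above background on 12 arrays in both genotypes, 10 fell and 2 were not called, with a median of -0.68. The array medians of the list ran from -1.28 to -0.48 and were below 0 on 12 of 12 arrays. In pair B, where the Mbd1 fall was largest, they ran from -0.82 to -0.54. Their part in the Mbd1 result was not tested.

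Mbd2, the NuRD reader of methylated DNA, gave values on either side of 0. Probe A_52_P347287 (chr18:70974943-70975002, mm7) ran from -0.54 through a median of -0.14 to 0.73 and was lower in KO on 8 of 12 arrays. Its fitted ratio was -0.093 ± 0.10 (95% interval -0.31 to 0.13, limma adjusted p = 0.664). KO and WT intensities were 9.55 ± 0.39 and 9.65 ± 0.36 (SD, 12 arrays) and overlapped. The other Mbd2 probe, A_51_P256337, was well above background on 1 KO and 1 WT array and was not tested.

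Mbd3, the alternative NuRD subunit, varied more between arrays than between genotypes. Probe A_51_P398004 (chr10:80183845-80183905, mm7) ran from -1.11 through -0.069 to 0.59, with 6 arrays lower and 6 higher. The fitted ratio was -0.15 ± 0.15 (95% interval -0.48 to 0.17, limma adjusted p = 0.630). Pairs A and B had mean ratios of -0.43 and -0.35, each with arrays on both sides of 0, while all 4 arrays of pairs C and D were above 0, at 0.067 to 0.45. With a coefficient for each pair and a dye term, the fitted ratios were -0.43 (A), -0.35 (B), 0.74 (C) and -0.21 (D). Pair D thus changed sign against its raw ratios. The difference between these coefficients did not pass (limma F test, adjusted p = 0.330, unadjusted p = 0.0261).

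Mbd4, the reader that is also a glycosylase, had the highest fitted ratio of the group, though it was not called. Probe A_51_P203192 (chr6:115868170-115868229, mm7) ran from -0.19 through 0.20 to 0.51 and was higher in KO on 9 of 12 arrays. The intensities were 8.25 ± 0.17 in KO and 8.07 ± 0.14 in WT RNA (SD, 12 arrays), with overlapping ranges. The fitted ratio was 0.18 ± 0.066 (95% interval 0.035 to 0.32, limma adjusted p = 0.140). Pairs A, C and D had mean ratios of 0.19, 0.40 and 0.19, and pair B stood at 0.034.

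Zbtb38, the zinc finger reader, differed widely in level between arrays, alike in both genotypes, and was not called. Probe A_51_P476509 (chr9:96328054-96328113, mm7) had intensities of 7.63 ± 0.75 in KO and 7.61 ± 0.67 in WT RNA (SD, 12 arrays). The levels split by slide. Pairs C and D, which shared a slide, had 8.05 to 9.04 in KO and 7.90 to 8.76 in WT RNA. Pairs A and B had 6.83 to 7.45 and 6.64 to 7.58. Its ratios ran from -0.69 through 0.045 to 0.65, with 6 arrays on each side of 0. The fitted ratio was 0.028 ± 0.14 (95% interval -0.28 to 0.34, limma adjusted p = 0.939).

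Among the erasers, Tet1 gave the narrowest interval. Probe A_51_P512172 (chr10:62332082-62332141, mm7, listed under the older symbol Cxxc6) ran from -0.25 through -0.063 to 0.073 and was lower in KO on 10 of 12 arrays. The fitted ratio was -0.080 ± 0.035 (95% interval -0.16 to -0.0026, limma adjusted p = 0.221). Intensities in KO and WT RNA were 8.15 ± 0.40 and 8.23 ± 0.43 (SD, 12 arrays), a spread between arrays that both genotypes shared.

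Tet2, the family member best known from blood stem cells and their cancers, was read by 2 probes 1801 bases apart on chromosome 3, both listed under an older clone name. Probe A_51_P340083 (chr3:133261322-133261381, mm7) ran from -0.20 through 0.057 to 0.47, with a fitted ratio of 0.11 ± 0.068 (95% interval -0.043 to 0.25, limma adjusted p = 0.421). Probe A_52_P502083 (chr3:133263123-133263182), well above background on 7 KO and 5 WT arrays, ran from -0.40 through 0.052 to 0.38, with a fitted ratio of 0.044 ± 0.070 (limma adjusted p = 0.788). Both were below 0 on average in pair B (-0.13 and -0.14) and above 0 in pairs A (0.15 and 0.17) and C (0.30 and 0.36). In pair D they differed in sign, at 0.23 and -0.17. Their ratios correlated at 0.71 over the 12 arrays.

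Tet3 was read by 3 probes, of which 0 were called. Probe A_51_P199339 (chr6:83394108-83394167, mm7) was close to background, well above it on 8 KO and 7 WT arrays, and had a fitted ratio of 0.070 ± 0.040 (limma adjusted p = 0.360). Probe A_52_P173108 (chr6:83388140-83388199) stood at 0.065 ± 0.12 (adjusted p = 0.815), from -0.52 to 0.99. Probe A_52_P491273 (chr6:83428120-83428179) stood at -0.036 ± 0.064 (adjusted p = 0.812), from -0.48 to 0.23. Correlations between the log2 ratios of the 3 probes over the 12 arrays were -0.33, -0.20 and 0.00026.

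Tdg, the glycosylase that removes the oxidised bases, varied widely from array to array with no called difference. Probe A_51_P338336 (chr10:82191750-82191809, mm7) ran from -1.19 on replicate 4 through a median of -0.22 to 0.83 on replicate 6. Its fitted ratio was -0.12 ± 0.18 (95% interval -0.52 to 0.27, limma adjusted p = 0.766). Probe A_52_P33287 is listed 40327881 bases away on the same chromosome (chr10:41863869-41863928), so whether it reads Tdg itself is uncertain. It followed the first closely (correlation of 0.93 over 12 arrays), with a fitted ratio of -0.13 ± 0.18 (adjusted p = 0.756). Both were above 0 on both arrays of pair D, at 0.18 and 0.29 for the first and 0.45 and 0.62 for the other.

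**Figure D4:**
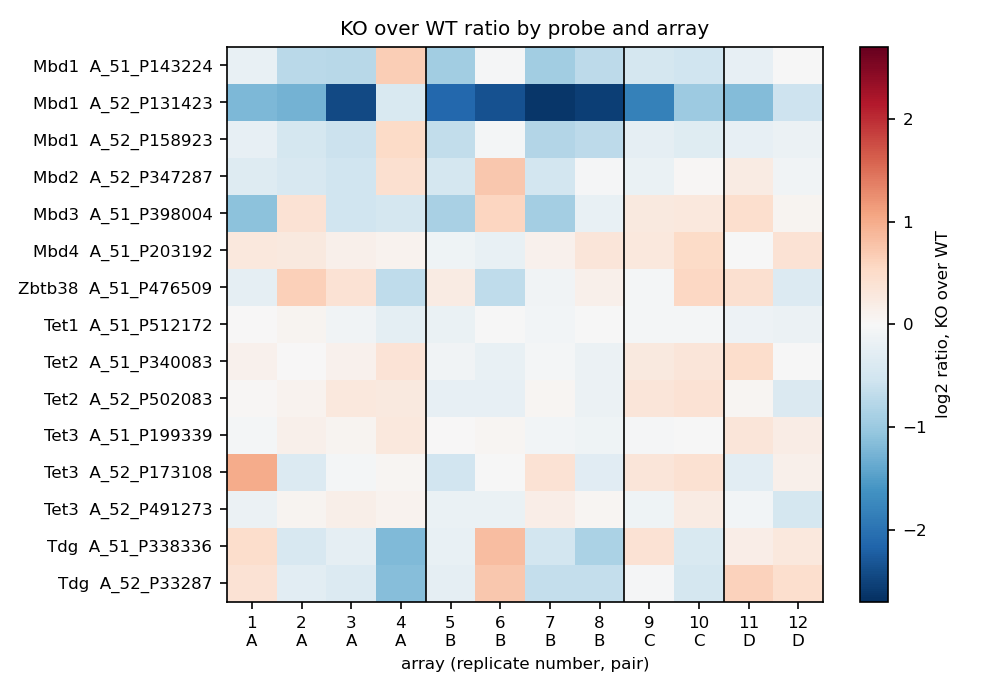
Log2 KO over WT ratio (colour, blue lower and red higher in KO) of the 15 tested probes (rows) on 12 arrays (columns, replicate number and pair). The row of Mbd1 A_52_P131423 is blue throughout, and replicates 4 and 6 give opposite values at Tdg A_51_P338336 (-1.19 and 0.83).

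The between-pair test gave 0 calls among the 15 member probes, against 0.368% of all probes tested that way. Unadjusted p under 0.05 was reached by 3 of the 15 (Mbd1 A_52_P131423, Mbd3 and Tet2 A_52_P502083), against 12.6% of all probes. The dye term was called for 0 member probes, against 6.36% of all.

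The other genes of the pathway were described with 1 probe per gene, the brightest. By this probe 6.65% of all 19719 named genes were called, 3.07% higher and 3.58% lower, with a median of -0.0062. The lists were chosen with earlier results of these data known, so setting their counts beside these shares tests nothing. None of the 9 other methyl-CpG readers and MBD-domain proteins was called (0 higher, 0 lower), with a median of 0.049. Among 13 partners of the Mbd proteins, 3 rose and 0 fell, with a median of 0.13. These were Rbbp7, a histone-binding NuRD subunit (0.49 ± 0.073, adjusted p = 0.0039, higher on 12 of 12 arrays), Hdac1, its deacetylase (0.24 ± 0.061, adjusted p = 0.0412), and Atf7ip, a partner of Mbd1 and Setdb1 (0.48 ± 0.080, adjusted p = 0.0067). At Atf7ip, 3 of 4 probes were called, at 0.48, 0.38 and 0.35, and the other stood at 0.056.

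The list of Tet partners and enzymes of 2-oxoglutarate metabolism had 2 of 13 genes that rose and 0 that fell, with a median of 0.18. Both were subunits of the mitochondrial NAD-dependent isocitrate dehydrogenase, Idh3g (0.51 ± 0.070, limma adjusted p = 0.0029, higher on 12 of 12 arrays) and Idh3b (0.35 ± 0.088, adjusted p = 0.0419). Ogt, the sugar transferase that binds the Tet proteins, stood at 0.067 ± 0.17. Of 20 measured genes of base excision repair and deamination, Lig3, a DNA ligase, rose (0.23 ± 0.061, adjusted p = 0.0470), and Gadd45g, a stress response gene linked to demethylation, fell by 0.63 ± 0.15 (adjusted p = 0.0308). Among 7 writers, Uhrf2, a relative of the maintenance factor Uhrf1, rose (0.75 ± 0.16, adjusted p = 0.0234, higher on 12 of 12 arrays), Dnmt3a fell, and 5 were not called.

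**Figure D5:**
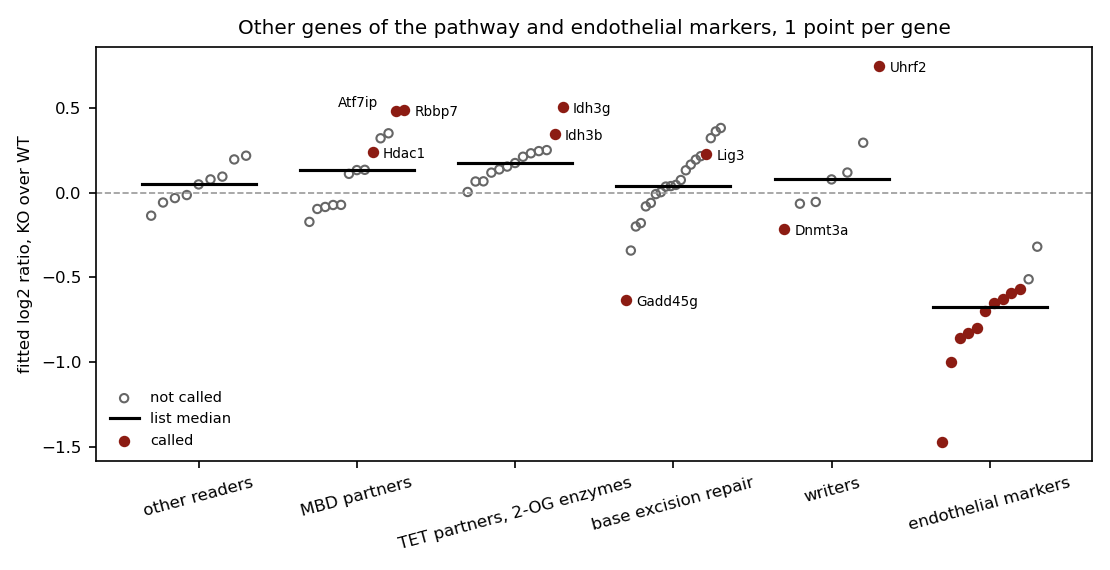
Fitted log2 KO over WT ratio (vertical axis) of each gene of 5 pathway lists and of the endothelial markers, by its brightest probe; filled points were called and bars are list medians. Pathway medians lie between 0.043 and 0.18, and the endothelial median at -0.68.

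Markers of other cells were set beside these values. Of 10 alveolar type 2 and lung epithelial markers, 1 fell (Lamp3) and 9 were not called, with a median of -0.086. Club cell markers (0 of 3 called), leukocyte markers (0 of 6) and fibroblast markers (1 of 6, Lum, higher) had medians of -0.078, -0.13 and -0.19. The 11 proliferation genes had a median of 0.28 with 0 called, and array medians from -0.45 on replicate 2 to 1.59 on replicate 6. Their part in the values of Tdg, Mbd4 and the pathway genes was not tested.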

How the data were processed

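Tumour RNA of both genotypes was hybridised to 12 two-colour arrays, each with KO and WT RNA in opposite dyes. Spot intensities were extracted with Agilent Feature Extraction 10.1.1.1 on array design 014868 (build mm7), per the file headers. The deposited mean intensities and local background intensities are not normalized. The deposited flags record whether a spot was well above background or outlying. The authors also deposited log2 ratios, for which the submitters' processing notes name limma but no normalization. These ratios were of KO over WT, correlated at 0.991 to 0.997 with those computed here, and had column medians of -0.011 to 0.0078; their centring stays unknown.

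Here, R 4.3.3 with limma 3.58.1 corrected the background by normexp (offset 50) and normalized within arrays by loess, with control spots and 86 to 828 outlying spots per array at weight 0. Local backgrounds marked as outlying (901 to 1240 spots per array in red, 341 to 2117 in green) were replaced by the median of that array and dye. Spots of a probe were averaged, ratios were turned to KO over WT, and 35562 probes well above background in either genotype on at least 6 arrays were kept. The model had the KO over WT ratio, a dye term and a random effect of pair (duplicateCorrelation, consensus 0.079), with Benjamini-Hochberg adjustment. Pairs were compared by an F test with 1 coefficient per pair. On simulated ratios all large and most smaller changes were found. The shared correlation was estimated too low and the share of false calls was above the nominal level, so adjusted p-values were too small there. The same model gave the adjusted p-values reported here, which may also be too small, so those just under 0.05 are the least certain.

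Of 41174 probes, 22951 were named by accession, 6659 by symbol, 3109 by older symbol, 2011 by the file alone and 6444 not at all. Named genes were all members, Dnmt3a, called genes of each list and the 5 genes most like a called member. The members and lists were chosen with earlier results of these data known. Alternatives covered background, normalization, filter, block, dye, weights, probes per gene, and arrays, pairs and slides left out or taken alone. Each replicate number ties the KO and WT RNA of 1 array, and every ratio is that paired difference.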

Additional observations from a re-analysis of the deposited data

Results flagged for a closer look

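Within pair B, Mbd1 probe A_52_P158923 had a log2 KO over WT ratio of -0.043 on replicate 6, while the other 3 arrays of the pair lay between -0.79 and -0.67. This was the 1 value that stood apart among 30 groups of 4 arrays, and chance sets about 1 in 20 such groups apart. On the same array the neighbouring probe A_51_P143224 read -0.026, and A_52_P131423 read -2.36.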

How the results depend on the processing

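The count of called member probes, 1 as reported, was 3 with arrays as independent or weighted, 0 with arrays averaged by pair, with 1 probe per gene (where the brightest Mbd1 probe is A_51_P143224) and within slides 1, 2 and 3, and 1 to 3 with each array left out (3 without replicate 4). Over all probes, 2033 calls (1008 higher, 1025 lower) became 486 with median centring, 3269 with arrays as independent, 40 with arrays averaged by pair, 577, 1191, 1183 and 1268 without pairs A, B, C and D, 0, 1 and 0 within slides 1, 2 and 3, and 1053 to 2687 with each array left out. With local backgrounds as deposited, 940 were higher and 585 lower. Mbd1 A_52_P131423 lay between -2.42 and -1.13 (limma adjusted p from 0.000976 to 0.205) and was called in 27 of 31 settings. The call was lost with arrays averaged by pair and within each slide, where fewer values enter the fit. With each array left out it lay between -1.70 and -1.51, with A_51_P143224 between -0.48 and -0.34 and A_52_P158923 between -0.39 and -0.27. Both of these were called with arrays as independent, with array weights and without replicate 4. Signs changed for uncalled probes. Tet2 A_52_P502083 was -0.0028 with median centring, -0.016 without pair A or C and -0.14 within slide 2. Zbtb38 was -0.0052 and -0.0054 without pairs C and D, -0.11 within slide 2 and -0.044 to 0.091 with each array left out. Tet3 A_52_P173108 was -0.11 within slide 2 and -0.0054 to 0.14 with each array left out. Tet3 A_52_P491273 was 0.017 without pair D, 0.042 within slide 1 and -0.060 to 0.0073 with each array left out. Within slide 2, Tet2 A_51_P340083 was -0.13 and Tet3 A_51_P199339 -0.032. Within slide 3, Mbd3 was 0.26, and Tdg was 0.12 at A_51_P338336 and 0.14 at A_52_P33287. Mbd2, Mbd4 and Tet1 kept their signs and were called in 0 of 32 settings. Between pairs, 0 member probes were called in the 5 alternatives run. Signal limits Tet2 A_52_P502083, which was near background on all 3 slides, and Tet3 A_51_P199339, which was not well above it on slide 3.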
